A study of Mus musculus with 14 samples.

Results

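Klhl9, Mtap, Gm12606, Cdkn2a and Cdkn2b lie near each other on mouse chromosome 4, and their RNA was followed through 14 libraries of Eµ-Myc lymphoma cells. These 5 genes, of 46959 in the count table, were chosen by name as neighbours of Cdkn2a after their own counts had been seen, so their levels are given as a description with no test. The tumours arise from a Myc transgene driven by the immunoglobulin heavy chain enhancer, which is active in B-lineage cells. The lymphomas were 2 lymph node tumours that formed after cultured line 506 was injected into wild-type C57BL/6 mice. From day 7 until the disease endpoint, the first mouse received L-asparaginase (ASNase), an enzyme that degrades asparagine, and the second received vehicle (0.9% NaCl). The other 12 libraries were lines 115, 136, 309, 504, 505, 506, 517, 524, 549, 649, 688 and 801, each named for its Eµ-MycTg/+ donor mouse and grown for 24 h, without treatment, in medium with 0.37 mM added L-asparagine. All 14 libraries carry the genotype label WT beside the transgene. Each line and each treatment has 1 library, so the spread between cultures or tumours of one kind is not known.

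Cdkn2a encodes a pair of tumour suppressors from different first exons. p16INK4a inhibits the cyclin D kinases Cdk4 and Cdk6 and so keeps the retinoblastoma protein active, whereas p19ARF binds Mdm2 and so stabilises p53. Cdkn2b encodes p15INK4b, another inhibitor of the same kinases. Mtap encodes methylthioadenosine phosphorylase, which recycles the methylthioadenosine left by polyamine synthesis to methionine, and cells without it accumulate a metabolite that inhibits the arginine methyltransferase Prmt5. Klhl9 encodes a substrate adaptor of the Cul3 ubiquitin ligase that acts on Aurora B in mitosis. Gm12606 is a long non-coding RNA without a known role. In Eµ-Myc tumours, loss of the Arf-p53 pathway is the best known event that cooperates with Myc, and in human cancers MTAP is often lost together with CDKN2A.

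In the mm10 (GRCm38) coordinates of the count table, the order from the centromere side was Klhl9 (88718292 to 88722465, minus strand), Mtap (89137122 to 89181081, plus strand), Gm12606 (89235699 to 89273403, minus strand), Cdkn2a (89274471 to 89294653, minus strand) and Cdkn2b (89306289 to 89311032, minus strand). Klhl9 and Mtap were 415 kb apart, Mtap and Gm12606 54.6 kb, Gm12606 and Cdkn2a 1.07 kb, and Cdkn2a and Cdkn2b 11.6 kb. Cdkn2a was counted over both first exons at once, so its values do not separate p16INK4a from p19ARF.

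The stretches before the start sites of p19ARF, p16INK4a and Cdkn2b are shown because Cdkn2a and Cdkn2b, 11.6 kb apart, differed widely in level within the same libraries. They come from the RefSeq promoter table (GRCm38.p6), which matched 4 of the 5 genes. Each run covers the bases from 250 to 41 before the RefSeq start, written along the transcribed (minus) strand from 5′ to 3′, and capitals mark the GC box GGGCGG and the E2F motif TTTCCCGC, searched on both strands.
Cdkn2a, p19ARF start, chr4:89294660-89294869, minus strand: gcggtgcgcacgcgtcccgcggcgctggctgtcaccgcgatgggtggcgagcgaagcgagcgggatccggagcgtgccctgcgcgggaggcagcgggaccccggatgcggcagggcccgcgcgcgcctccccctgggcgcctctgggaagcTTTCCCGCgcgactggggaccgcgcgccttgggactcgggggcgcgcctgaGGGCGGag
Cdkn2a, p16INK4a start, chr4:89282233-89282442, minus strand: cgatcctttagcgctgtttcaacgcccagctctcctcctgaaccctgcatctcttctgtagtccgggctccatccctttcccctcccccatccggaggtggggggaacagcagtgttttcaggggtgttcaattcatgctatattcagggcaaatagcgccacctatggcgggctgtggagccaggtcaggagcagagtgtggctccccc
Cdkn2b, chr4:89311073-89311282, minus strand: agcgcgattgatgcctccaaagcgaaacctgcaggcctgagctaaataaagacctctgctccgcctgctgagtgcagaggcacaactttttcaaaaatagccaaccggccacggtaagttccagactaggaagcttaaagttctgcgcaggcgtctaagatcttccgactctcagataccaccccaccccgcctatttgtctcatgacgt
The p19ARF run held 1 GC box, 48 bases before the start, and 1 E2F motif, 99 bases before it, and the p16INK4a and Cdkn2b runs held neither motif. Over all 32817 such windows of 210 bases in the table, 26.7% held the GC box and 0.707% the E2F motif. The p19ARF run was also the richest of the 3 in CpG dinucleotides, with 35 of them, against 7 before p16INK4a and 11 before Cdkn2b, where the median of all windows was 4.

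Total counts were 25690935 in the ASNase lymphoma, 27715832 in the vehicle lymphoma and 24597230 to 32614751 in the lines. Levels are CPM, counts per 1000000 counts of the TMM-scaled library, and 3 counts, the upper limit that a count of 0 allows, correspond to 0.0904 to 0.122 CPM. The 6 B cell markers Cd79a, Cd79b, Pax5, Cd22, Ms4a1 and Ebf1 summed to 1811 CPM in the ASNase lymphoma, 2166 CPM in the vehicle lymphoma and 1503 to 2507 CPM in the lines, which bears on the labelled cell type.

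Lines 506, 549 and 688 stood apart from the other lines by their likeness to each other, which bears on any count of lines. In the lymphomas grown from line 506, Ighv5-17 made up 88.3% of the heavy chain V counts with ASNase and 82.5% with vehicle. All 3 lines led with the same segments, Ighv5-17 (88.2%, 65.0% and 87.0% of heavy chain V counts in lines 506, 549 and 688) and Igkv9-120 (93.3%, 51.5% and 98.2% of kappa V counts). Over the 500 most variable genes, Spearman's rho was 0.928 between lines 506 and 688, 0.897 between lines 506 and 549 and 0.837 between lines 549 and 688, and the highest value among the other pairs was 0.724. Igkv9-120 also led in line 649 (54.8% of kappa V counts), whose leading heavy chain segment was another. Line 549 held other segments as well, with Ighv13-2 at 25.7% and Igkv5-39 at 34.5%. Ighv13-2 was the leading segment of line 115 (99.8%), where Igkv5-39 was at 0.867%. Line 136 held both, with Ighv13-2 at 9.38% and Igkv5-39 at 14.9%. By their labels the 12 lines come from separate mice, and whether the 3 lines share an origin was not tested. The segments were named after their values had been seen, and so was the option of leaving lines 549 and 688 out of the results on the lines.

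Cdkn2a, the source of p16INK4a and p19ARF, had the widest range of the 5 genes, from 0 to 218 CPM over the lines, with a median of 6.74 CPM. It was abundant in line 517 (218 CPM), line 801 (209 CPM), line 524 (192 CPM), line 136 (152 CPM) and line 115 (99.8 CPM). It was far lower in line 505 (288 counts, 9.97 CPM), line 649 (109 counts, 3.52 CPM), line 309 (54 counts, 2.19 CPM) and line 504 (17 counts, 0.584 CPM). Lines 549 and 688 had 1 count each and line 506 had 0. The counts therefore fell into 5 lines with at least 3005 reads, 4 with 17 to 288 and 3 with at most 1, and the last 3 were those that share their leading heavy chain segment. In this order, the exact 95% Poisson intervals of neighbouring lines overlapped between lines 517 and 801 and among lines 688, 549 and 506, and at no other step. These intervals cover counting error only, because each line has 1 library and the spread between cultures is not known. Reads carried no molecular identifiers, so repeated reads of the same molecule could not be told apart. With lines 549 and 688 left out, the median over the other 10 lines was 54.9 CPM.

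**Figure D1:**
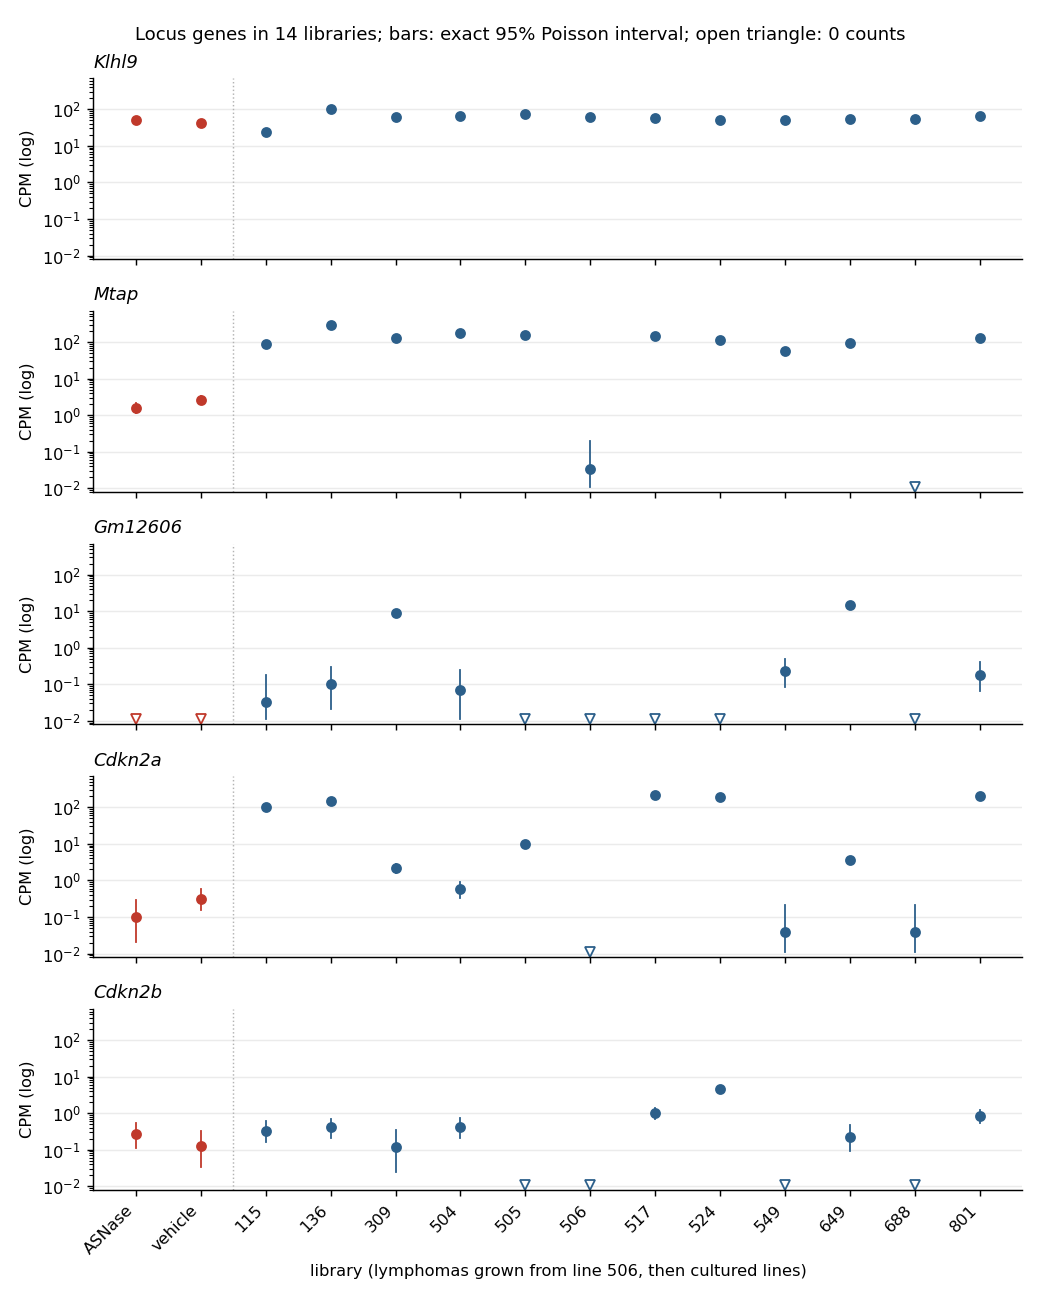
Each panel shows 1 gene, with CPM on a log axis against the library, the lymphomas at the left in red and the 12 lines in blue. Bars are exact 95% Poisson intervals and open triangles mark 0 counts, and Mtap and Cdkn2a are both near 0 in lines 506 and 688, while Klhl9 stays between 24.3 and 99.5 CPM in every line.

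Mtap, the methylthioadenosine phosphorylase gene, was abundant in 10 of the 12 lines and nearly absent from 2. It was highest in line 136 (294.5 CPM), followed by line 504 (175 CPM), line 505 (153 CPM), line 517 (144 CPM), line 309 (131 CPM), line 801 (130 CPM) and line 524 (113 CPM). Lines 649 (94.8 CPM), 115 (85.7 CPM) and 549 (57.5 CPM, 1520 counts) followed below the median of 122 CPM. Line 506 had 1 Mtap count and line 688 had 0. Neighbours in this order had overlapping intervals only between lines 505 and 517, between lines 309 and 801, and between lines 506 and 688. Line 549, which had 1 Cdkn2a count like line 688, had Mtap RNA at 47.2% of the median of the lines. It also held the further V segments given above, and whether it is a mixture of cells, of which some lack Mtap RNA, was not tested. Line 115, whose leading heavy chain segment recurs in line 549, had 3005 Cdkn2a counts. Line 136, which held both further segments of line 549 at lower shares, had 4505.

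Mtap and Cdkn2a were thus not low in the same set of lines. Per kilobase of counted exon, the Cdkn2a level was 4.68 times the Mtap level in line 524, 4.41 times in line 801, 4.17 times in line 517, 3.21 times in line 115 and 1.42 times in line 136. The ratio was 0.180 in line 505, 0.102 in line 649, 0.0459 in line 309, 0.00916 in line 504 and 0.00181 in line 549. In line 504 this came with Mtap at 175 CPM, the second highest level of the lines.

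Cdkn2b, the p15INK4b gene, was low throughout, with a median of 0.279 CPM over the lines. Its highest level was 4.49 CPM (127 counts) in line 524, followed by line 517 (33 counts) and line 801 (27 counts). Lines 504 and 136 had 12 counts each, line 115 had 10, line 649 had 7 and line 309 had 3. Lines 505, 506, 549 and 688 had 0, which allows up to 0.104, 0.103, 0.113 and 0.115 CPM. Lines 517, 801 and 524 were thus the top 3 for both inhibitor genes. Per kilobase, Cdkn2a exceeded Cdkn2b 446-fold in line 136, 357-fold in line 115, 302-fold in line 801, 261-fold in line 517 and 50.9-fold in line 524. The excess was smaller in line 309 (21.4-fold), line 649 (18.5-fold) and line 504 (1.68-fold). These values, like those of lines 136 and 115, each rest on 12 Cdkn2b counts or fewer.

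Gm12606, the non-coding RNA 1.07 kb from Cdkn2a, had a pattern of its own. It reached 451 counts (14.6 CPM) in line 649 and 217 counts (8.79 CPM) in line 309, where Cdkn2a was at 109 and 54 counts. Lines 549 and 801 had 6 counts each, line 136 had 3, line 504 had 2, line 115 had 1, and lines 505, 506, 517, 524 and 688 had 0. In the 5 lines with the most Cdkn2a RNA it was therefore at 6 counts or fewer. Both genes lie on the minus strand, and their counted exons do not overlap.

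Other non-coding RNAs near the locus, named after their values had been seen, added to this. Gm12602 (89100664 to 89128226), which lies on the Klhl9 side of Mtap, had 63 counts in line 688, 54 in line 506, 33 in line 549 and 9 in line 504, and 0 in the other 8 lines. It was thus detected beside the missing Mtap RNA in lines 506 and 688. Beyond Cdkn2b, Gm12609 (89381957 to 89399880) had 8 to 46 counts in lines 115, 136, 309, 517, 524, 649 and 801, 1 count in line 549, and 0 in lines 504, 505, 506 and 688. Gm12610 (89421848 to 89463487) had 8 to 39 counts in those 7 lines, 1 in line 549, and 0 in lines 504, 505, 506 and 688.

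Klhl9, the Cul3 adaptor gene, was expressed in every library, with 24.3 to 99.5 CPM and a median of 58.1 CPM over the lines. Line 115 had 730 counts (24.3 CPM), line 136 had 2952 counts (99.5 CPM), and the other 10 lines had between 50.3 and 76.0 CPM (59.6 ± 8.39 CPM, SD, n = 10). Lines 506 and 688, without Mtap RNA, had 60.6 and 53.9 CPM. Both lay within the 50.3 to 76.0 CPM of the other 8 lines.

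The 2 outlying Klhl9 values went along with the genes around it. Among the 10 non-member genes with a median of at least 10 CPM within 10 Mb of Cdkn2a on the Klhl9 side, the median log2 ratio to the median of the lines was -0.98 in line 115, with 10 of 10 genes below 0. In line 136 it was 0.81, with 10 of 10 genes above 0, and in the other 10 lines it lay between -0.09 and 0.25. Over 40 Mb on that side (49 genes) the median was 0.01 in line 115 and 0.84 in line 136. On the far side, the 8 genes within 10 Mb had medians of 0.05 in line 115 and -0.07 in line 136. The shift was thus not seen on the far side of the locus, and it reached farther on the Klhl9 side in line 136 than in line 115. In the lymphomas the proximal 10 Mb had medians of -0.12 with ASNase and -0.32 with vehicle, and the distal 10 Mb medians of -0.60 with ASNase (1 of 8 genes above 0) and -0.82 with vehicle (0 of 8), against -0.26 and -0.27 for the 7800 genes of the other chromosomes. Within 10 Mb the distal genes were thus the lower side in both tumours, whereas in line 506 their median was 0.02. Over 40 Mb the proximal and distal medians were -0.35 and -0.37 with ASNase, and -0.48 and -0.34 with vehicle. The distal side was thus not the lower one with vehicle over that reach. Mtap, on the shifted side of Cdkn2a, was highest in line 136, and of the 10 expressing lines only line 549 had less of it than line 115. DNA was not measured, and copy number was not tested.

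**Figure D2:**
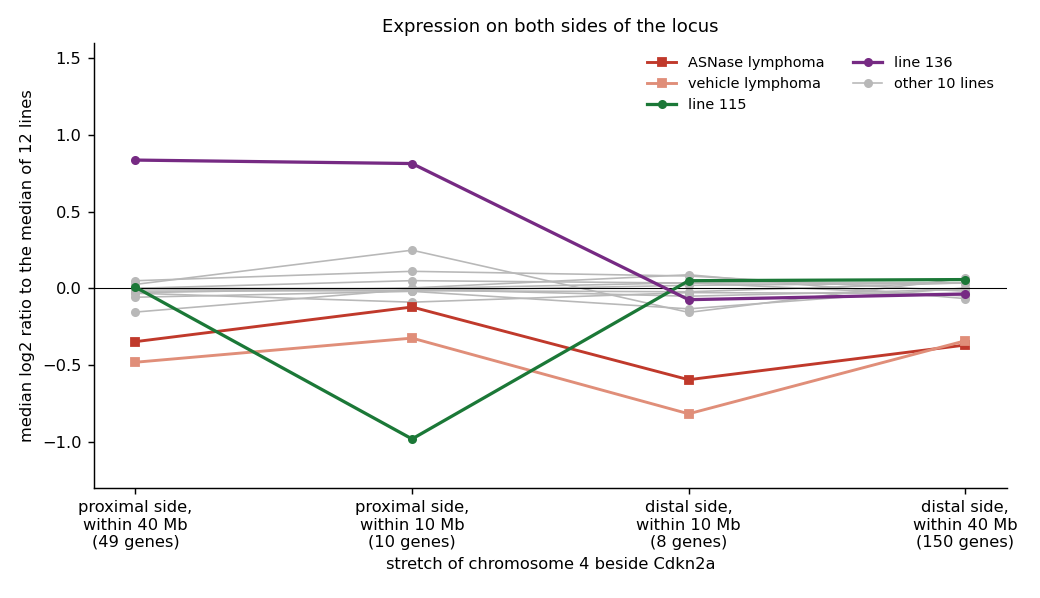
The vertical axis gives the median log2 ratio of non-member genes to the median of the 12 lines, and the horizontal axis gives stretches of chromosome 4 on the Klhl9 (proximal) and the far (distal) side of Cdkn2a. Lines 115 and 136 leave the band of the other lines on the proximal side, at -0.98 and 0.81 within 10 Mb, and lie at 0.05 and -0.07 on the distal side.

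To describe how far low expression reached, a gene with a median of at least 1 CPM over the lines was called low in a library at or under that median divided by 8, which is 0.843 CPM for Cdkn2a and 15.2 CPM for Mtap. Within 5 Mb of Cdkn2a, 13 genes were expressed at that level, Klhl9, Mtap and Cdkn2a among them, while Cdkn2b and Gm12606 fell under it. In both lymphomas and in lines 506 and 688, Mtap and Cdkn2a were low. The next of the 13 genes on each side, Klhl9 and Gm12669, were not low. Gm12669 lies 2511 kb from the Cdkn2a start. Genes between them, such as Cdkn2b, Gm12609 and Gm12610, fell under the limit of 1 CPM. How far low expression reached on that side was therefore not resolved. In lines 549 and 504, Cdkn2a was low with Mtap and Gm12669 not low on its sides. The lines nearest to the Cdkn2a limit were line 504 under it, at 0.584 CPM, and line 309 above it, at 2.19 CPM. In lines 115, 136, 309, 505, 524, 649 and 801 none of the 13 genes was low. Without lines 549 and 688 the Cdkn2a limit was 6.86 CPM, and lines 309, 504, 506 and 649 were then low.

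Acer2, an alkaline ceramidase gene farther out on the Klhl9 side, was the other low gene of the window and had 0 counts in line 504 and 4 in line 517, against 107 to 760 counts in the other lines. In all, 8 of 156 pairs of line and expressed window gene were low, and 2 of 120 when Klhl9, Mtap and Cdkn2a were left out. Over all expressed genes of the table, 0.586% were low in the ASNase lymphoma and 0.55% in the vehicle lymphoma, and 1.41% of all pairs of line and gene were low. The member counts were fixed by their choice and are not read against these shares.

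**Figure D3:**
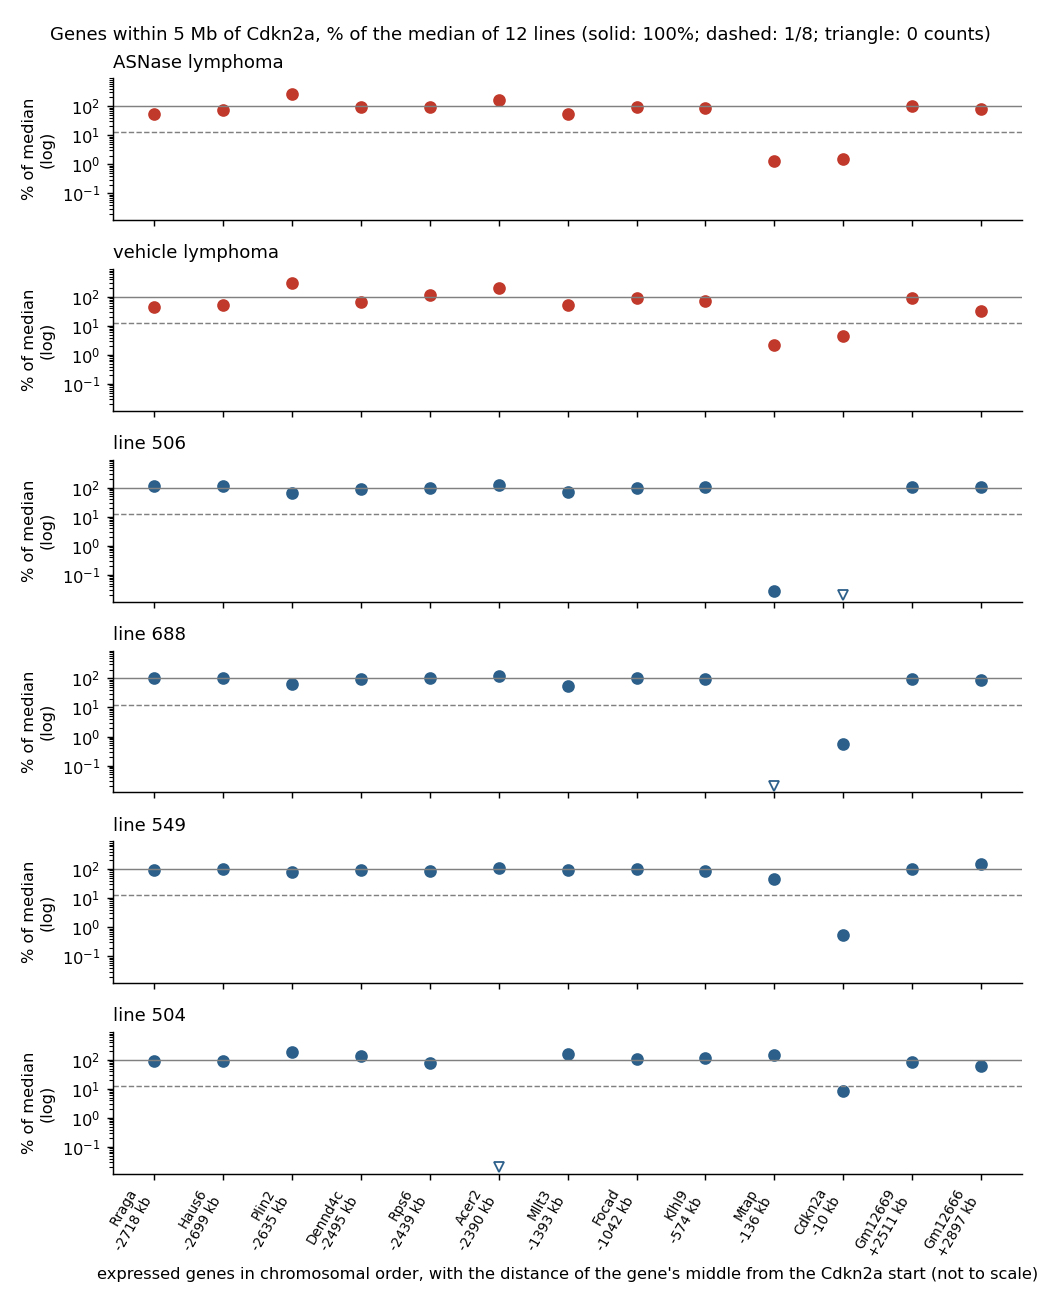
Each panel shows 1 library, with the 13 expressed genes within 5 Mb in chromosomal order and their level as a percent of the median of the 12 lines on a log axis. The dashed line is the median divided by 8 and open triangles mark 0 counts, and the ASNase and vehicle lymphomas and lines 506 and 688 fall under it at Mtap and Cdkn2a, line 549 at Cdkn2a, and line 504 at Cdkn2a and Acer2.

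A count of 1 or less in an otherwise abundant gene was rare. Of 6875 genes with a median of at least 20 CPM over the lines, 49 had at most 1 count in at least 1 line. In line 506 Mtap was the only such gene, and in line 688 there were 2, Mtap and the cyclin D kinase gene Cdk6. In lines 549 and 801 there were 0. These counts were made after the values had been seen.

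The other genes of the window were tested line by line, each line against the other 11. The window held 135 non-member genes, and 288 pairs of line and gene passed the filter on low counts. None was lower at an adjusted p under 0.05 in edgeR's quasi-likelihood test, where 0.192% of all pairs in the table were called lower. Each test sets 1 library against 11, and 328 of the 361 lower calls in the table came from lines 504 and 524. In lines 506, 549 and 688 edgeR called 0 of 15648 genes in either direction (126, 49 and 192 at an unadjusted p under 0.05), so the absence of window calls there says nothing about the window. Without adjustment, 9 window pairs were lower at a p under 0.05. By DESeq2, 4 pairs were lower, namely Acer2 in lines 504 and 517, Dennd4c in line 115 and Plin2 in line 524. In edgeR, Acer2 in line 504 had an adjusted p of 0.0753 and in line 517 of 0.855. Of the 9 pairs, 5 were in line 115 (Rraga, Haus6, Dennd4c, Rps6 and Focad, with log2 differences from -0.85 to -1.49). These genes are among those by which the Klhl9 side of line 115 was described as lower above, so their side restates that description. Higher calls were made for 2 pairs, against 0.508% of all pairs in the table. They were Cntln in line 309 (adjusted p = 0.000206) and Elavl2 in line 517 (adjusted p = 0.00442).

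In the ASNase lymphoma there were 48 counts of Mtap (1.58 CPM), 3 of Cdkn2a (0.0990 CPM) and 8 of Cdkn2b (0.264 CPM). In the vehicle lymphoma there were 84 counts of Mtap (2.65 CPM), 10 of Cdkn2a (0.315 CPM) and 4 of Cdkn2b (0.126 CPM). Gm12606 had 0 counts in both. Line 506, from which both tumours grew, had 1 Mtap count and 0 of Cdkn2a, Cdkn2b and Gm12606. Mtap was therefore detected in both tumours, at 1.30% of the median of the lines in the ASNase lymphoma and 2.17% in the vehicle lymphoma. Its level was 46.0 times that of line 506 in the ASNase lymphoma (exact 95% interval 7.87 to 1854) and 76.9 times in the vehicle lymphoma (13.4 to 3074), the width coming from the single count in line 506.

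Against the 0 counts of line 506, the exact 95% interval of the Cdkn2a ratio began at 0.396 for the ASNase lymphoma, which includes 1, and at 2.05 for the vehicle lymphoma. For Cdkn2b it began at 1.64 with ASNase and at 0.604 with vehicle, the second of which includes 1. Between the tumours, the Mtap level with ASNase was 0.598 times that with vehicle (0.410 to 0.863). The Cdkn2a ratio was 0.314 (0.0555 to 1.22) and the Cdkn2b ratio 2.09 (0.561 to 9.50), both with intervals that include 1. Per kilobase, the Cdkn2a level was 0.446 times that of Cdkn2b in the ASNase lymphoma and 2.97 times in the vehicle lymphoma. Among the lines with any Cdkn2b, line 504 was nearest to the tumours in counts of both genes (17 and 12). The ratio was 1.68 in line 504 and 18.5 to 446 in the other 7 of these lines.

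**Figure D4:**
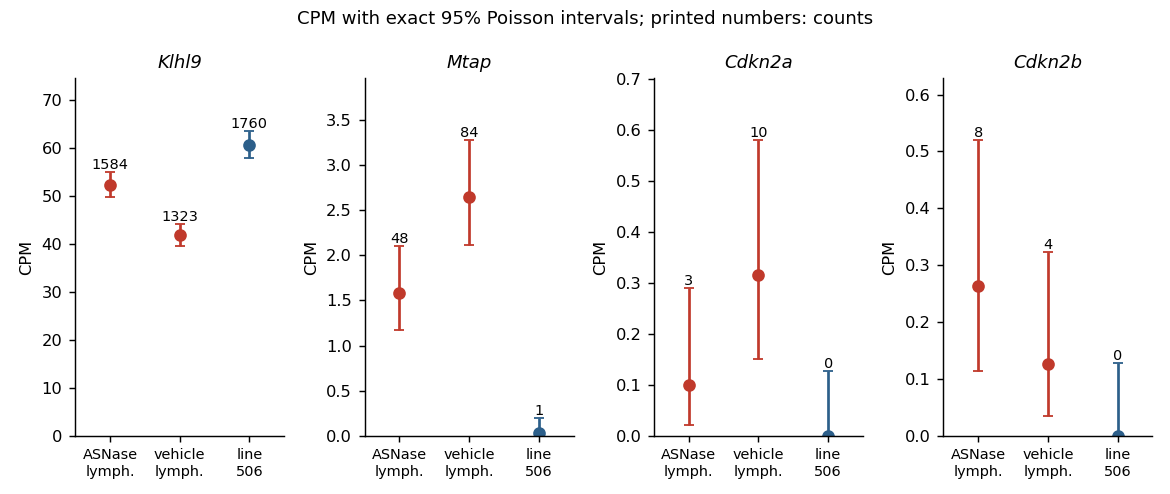
Each panel shows the CPM of 1 gene on a linear axis in the ASNase lymphoma, the vehicle lymphoma and line 506, with exact 95% Poisson intervals and the count printed above. Mtap has 48, 84 and 1 counts, and Klhl9 stays above 40 CPM in all 3 libraries.

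Markers of other cell types were present in the tumours beside these counts. The 8 fibroblast markers summed to 2342 CPM in the ASNase lymphoma and 931 CPM in the vehicle lymphoma, against 0.276 CPM in line 506 and at most 2.03 CPM in any line, and none of them was at 0 in either tumour. The 8 macrophage markers summed to 454 and 206 CPM in the ASNase and vehicle lymphomas and 7.79 CPM in line 506 (2.84 to 62.7 CPM over the lines). The 6 endothelial markers summed to 168 and 241 CPM, against 83.1 CPM in line 506, the 8 T cell markers to 50.4 and 106 CPM, against 22.3 CPM, and the 5 neutrophil markers to 11.3 and 19.2 CPM, against 0. With ASNase, 7 of 8 fibroblast and 8 of 8 macrophage markers were higher than with vehicle, and 0 of 6 endothelial, 0 of 8 T cell and 0 of 5 neutrophil markers were. Mtap had its lower value with ASNase, as did the endothelial, T cell, neutrophil and B cell sums. The part of host cells in these counts was not tested, and in bulk RNA fewer cells of a type and less RNA per cell cannot be told apart.

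Only Mtap and Cdk6 had a median of at least 20 CPM over the lines and at most 1% of that median in line 506. This count depends on its limits. Psd4 was at 1.69 CPM in line 506 (2.68% of the median) and at 27.8 and 49.3 CPM in the ASNase and vehicle lymphomas. Ccnd2, with a median of 5.15 CPM, was at 0.413 CPM in line 506 and at 11.5 and 14.1 CPM in those tumours. Cdk6 had 230 counts in the ASNase lymphoma and 194 in the vehicle lymphoma, against 7 in line 506, and so reached 10.7% and 8.62% of the median of the lines. Its level with ASNase was 1.24 times that with vehicle (1.02 to 1.51), the opposite direction to Mtap. Klhl9 was not in this class. It had 1584 counts (52.3 CPM) in the ASNase lymphoma and 1323 (41.7 CPM) in the vehicle lymphoma, against 1760 (60.6 CPM) in line 506. Relative to line 506 its level was 0.862 (0.805 to 0.924) with ASNase and 0.688 (0.640 to 0.740) with vehicle, and 1.25 (1.16 to 1.35) between the tumours. Scaled by library totals in place of TMM, which moves every gene by 0.38 (log2) in the ASNase lymphoma and 0.34 in the vehicle lymphoma relative to line 506, the Klhl9 ratios were 1.12 and 0.870, so its direction against line 506 turned for the ASNase lymphoma.

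The window genes outside the 5 were tested between the lymphomas and the lines, with both tumours averaged. Of the 135, 26 passed the filter. In edgeR's quasi-likelihood test 2 were called higher, among 13.4% of all 17450 genes tested, and 0 lower, among 11.1%. Both higher genes, Hacd4 and Adamtsl1, passed the filter through the tumours alone, so the count is not read as a result. Without adjustment, 9 window genes had a p under 0.05 in edgeR, of which 4 were lower and the rest higher. By DESeq2 1 was lower and 1 higher. Hacd4, a gene of very-long-chain fatty acid synthesis, had 160 and 47 counts in the ASNase and vehicle lymphomas and at most 0.101 CPM in any line (log2 fold change 7.26, adjusted p = 0.000152). Adamtsl1, a gene of a secreted matrix protein, had 74 and 14 counts, against 0 in all 12 lines (adjusted p = 0.0386). Its call was lost in DESeq2 (adjusted p = 0.178) and without the vehicle lymphoma (adjusted p = 0.0602), and it was not tested without the ASNase lymphoma. The fibroblast and macrophage sums were both higher with ASNase than with vehicle, as both genes were, and the part of either cell type in them was not tested.

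For the pathways of the 5 genes, lists of partners were counted in the same test, with the lists chosen with earlier results of these data known. The list of methionine salvage, polyamine synthesis and Prmt5 partners had the most calls, with 10 of 16 genes (62.5%) lower and 1 (6.25%) higher. Over all genes the shares were 11.1% lower and 13.4% higher. The median log2 fold change of the list was -0.72, against -0.01 over all genes tested. The 16 genes were all expressed in the lines, whereas the genes tested included some near 0 there. The 7800 genes of the other chromosomes given above, with a median of at least 10 CPM, had medians of -0.26 with ASNase and -0.27 with vehicle. All genes tested are thus not a like background for this list. Clns1a, a subunit of the Prmt5 complex, was at 96.3 CPM in the ASNase lymphoma and 104 CPM in the vehicle lymphoma, against 187 ± 30.3 CPM in the lines (SD, n = 12, adjusted p = 0.00386 in edgeR). Amd1, which commits S-adenosylmethionine to polyamines, was at 108 CPM in both tumours, against 196 ± 31.9 CPM (adjusted p = 0.00685 in edgeR). Prmt5 itself was at 131 and 151 CPM, against 232 ± 30.9 CPM (adjusted p = 0.00712 in edgeR). Mri1, which acts in the step after Mtap, was the 1 gene that rose (54.5 and 78.1 CPM, against 47.3 ± 6.37 CPM), and its call was lost without the vehicle lymphoma (adjusted p = 0.584 in edgeR). Of the 10 lower calls, 0 held without the ASNase lymphoma (Clns1a 0.0527, Amd1 0.0597 and Prmt5 0.0998 as adjusted p in edgeR, and all 10 still below 0), 3 without the vehicle lymphoma, 4 with library totals and 10 by DESeq2. Prmt5 was among those lost with library totals (adjusted p = 0.0682).

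Of the 17 genes of the Cdk4-Rb list, 2 (11.8%) fell and 0 rose, and the lower share is near the 11.1% of all genes. Cdk4, the kinase that p16INK4a inhibits, was at 211 CPM in the ASNase lymphoma and 281 CPM in the vehicle lymphoma, against 434 ± 58.9 CPM in the lines (adjusted p = 0.00477 in edgeR). Ccne2, a cyclin of the next kinase in the pathway, was at 31.4 and 21.3 CPM, against 53.1 ± 7.53 CPM (adjusted p = 0.0014 in edgeR). The call of Cdk4 was lost without the ASNase lymphoma (adjusted p = 0.111) and that of Ccne2 without the vehicle lymphoma (adjusted p = 0.0602). The other INK4 genes, Cdkn2c and Cdkn2d, did not pass the test, at 32.2 and 34.6 CPM against a mean of 23.1 CPM and at 18.3 and 25.7 CPM against 17.1 CPM.

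Of the 20 genes of the Arf-p53 list, 2 (10.0%) were called higher and 3 (15.0%) lower, which is near the 13.4% and 11.1% of all genes. Both higher genes, Gdf15 and Eda2r, passed the filter on low counts through the tumours alone, so their calls are not read as a result. Gdf15, a secreted p53 target, was at 1.09 and 1.32 CPM in the ASNase and vehicle lymphomas, against at most 0.0664 CPM in the lines. Eda2r, a receptor of the TNF receptor family, was at 0.363 and 0.126 CPM, against at most 0.0346 CPM, and it was not called by DESeq2 and not tested when either lymphoma was left out. Bax, an apoptosis effector, was at 40.1 and 51.4 CPM, against 93.3 ± 15.7 CPM (adjusted p = 0.00248 in edgeR, and 0.0615 without the ASNase lymphoma). Aen fell too, and so did Mdm2, the target of p19ARF, at 49.6 and 45.9 CPM against 71.1 ± 8.84 CPM (adjusted p = 0.0236 in edgeR). The calls of Mdm2 and Aen were lost with library totals (adjusted p = 0.168 and 0.270) and without the ASNase lymphoma (0.0867 and 0.296), and that of Mdm2 also without the vehicle lymphoma (0.159).

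Of 21 regulators of the locus, 5 (23.8%) were called higher and 3 (14.3%) lower, against 13.4% and 11.1% of all genes. Cbx7, a Polycomb repressor of Cdkn2a, was at 57.7 CPM in the ASNase lymphoma and 61.9 CPM in the vehicle lymphoma, against 22.3 ± 4.32 CPM in the lines (adjusted p = 0.000273 in edgeR). Tbx3, another repressor, was at 0.429 and 0.694 CPM, against at most 0.0603 CPM, and Id1, a repressor of p16INK4a, was at 1.42 and 1.92 CPM, against at most 0.213 CPM. Tbx3 and Id1 passed the filter on low counts through the tumours alone, so their calls and the share of 23.8% are not read as a result. The call of Tbx3 was also lost in DESeq2 (adjusted p = 0.286). Suz12, Rnf2 and Eed, which are Polycomb subunits, fell in the same test, and the 3 calls were lost with library totals and when either lymphoma was left out. Ring1, another Polycomb subunit, was called higher, at 22.4 and 26.3 CPM against a mean of 11.4 CPM (adjusted p = 0.0287 in edgeR). Its call was kept with library totals (adjusted p = 0.0104 in edgeR) and lost when either lymphoma was left out. The Polycomb subunits thus did not all move in 1 direction. Of the 6 genes of the Cul3 list of Klhl9, 3 (50.0%) fell (Aurkb, Cul3 and Rbx1) and 0 rose. These 3 were expressed in every line, so all genes tested are not a like background here either. Aurkb was at 109 and 124 CPM, against 183 ± 18.5 CPM, Cul3 at 113 and 76.3 CPM, against 175 ± 30.8 CPM, and Rbx1 at 53.8 and 54.4 CPM, against 78.8 ± 9.33 CPM. The call of Aurkb was lost without the ASNase lymphoma (adjusted p = 0.0698), that of Cul3 without the vehicle lymphoma (0.176), and that of Rbx1 without the ASNase lymphoma (0.115), without the vehicle lymphoma (0.102) and with library totals (0.202).

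Over the 5 lists together 29 genes were called, 8 higher and 21 lower, and 4 of the 8 had passed the filter through the tumours alone. With library totals there were 19, of which 10 were higher and 9 lower, since the totals move the median of all genes up by 0.22 (log2). Without the ASNase lymphoma 7 were called and without the vehicle lymphoma 12. All of these contrasts set tumour tissue with host cells, from line 506 alone, against cultures, and line of origin, tissue and host cells cannot be told apart in them.

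Across the lines, the p53 gene Trp53 was at 195 to 319 CPM in 10 lines. Line 517 had 69.3 CPM and line 524 had 2 counts, and in line 524 its neighbour on the other strand, Wrap53, had 0. Both were among the 5 lines with the most Cdkn2a RNA, but lines 801, 136 and 115 had 195, 235 and 286 CPM of Trp53. Only RNA levels were measured, so point changes in Trp53 were not examined. The p53 target Cdkn1a, an inhibitor of cyclin kinases, was named after its values were seen. It was at 13.0 CPM in line 517, 4.14 CPM in line 524 and 0.822 CPM in line 801. Lines 136 and 115 had 0.101 and 0.0997 CPM of it. Line 504, with 319 CPM of Trp53 and 0.584 CPM of Cdkn2a, had 7.07 CPM of Cdkn1a, more than line 524. Lines 505, 309 and 649 had 2.08, 1.58 and 1.03 CPM, and lines 688, 506 and 549 had 0.614, 0.482 and 0.416 CPM. A high Cdkn1a level was thus not limited to lines with abundant Cdkn2a or less Trp53. Mdm2 varied little, from 51.8 CPM in line 136 to 82.4 CPM in line 524. Prmt5 was at 227 CPM in line 506 and 218 CPM in line 688, within the 171 to 280 CPM of the lines, and Cdk4 was at 444 and 403 CPM in them, within 317 to 530 CPM.

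Cdk6 varied far more than Cdk4. It was at 0.241 CPM in line 506, 0.0968 CPM in line 649 and 0.0384 CPM in line 688, at 6.61 CPM in line 524 and 35.4 CPM in line 549, and at 56.8 to 204 CPM in the other 7 lines. Lines 506 and 688 were thus low for Mtap, Cdkn2a and Cdk6, whereas line 649 was low for Cdk6 with Mtap at 94.8 CPM.

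The likeness of each gene's pattern over the 12 lines was described by Spearman's rho. The points share scaling and depth, and lines 506, 549 and 688 are alike, so no p is given. Cdkn2a ran with Cdkn2b (0.80), less with Mtap (0.51), and not with Klhl9 (0.11) or Gm12606 (-0.10). Mtap ran with Klhl9 (0.72). Among genes with a mean of at least 5 CPM, those most like Cdkn2a were Cep19 and H2-Eb2 (both 0.90) and Igkv14-111 and Tmem126b (both 0.89). Those most opposed were the nuclear receptor gene Esrra (-0.95), Marveld1 (-0.92) and Lbhd1 and the DNA repair endonuclease gene Ercc5 (both -0.91). H2-Eb2, an MHC class II gene, ranged from 0.103 to 44.8 CPM over the lines and Esrra from 7.65 to 38.7 CPM.

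For Mtap the most alike were Ccdc12 (0.96), Gm1821 (0.92), Gm12844 (0.90) and Pofut1 (0.90), and the most opposed were Dock8 (-0.93), Pfkfb2 (-0.92), Txndc11 (-0.90) and Socs7 (-0.89). For Klhl9 the most alike were Pdcd6ip (0.89), Vars2 (0.87), Wdr82 (0.85) and Mrm1 (0.83), and the most opposed were Gm42427 (-0.90), AW209491 (-0.86), Zfp799 (-0.85) and Sik1 (-0.81). None of the genes most like Mtap or Klhl9 came from the 5 Mb window.

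Of 9766 genes, 8.36% had a rho of at least 0.6 in size with Cdkn2a, 11.4% with Mtap and 2.25% with Klhl9. Against these shares, the Arf-p53 list had 1 of 14 genes at that size with Cdkn2a (Mdm4, negative), 1 with Mtap (Sesn2) and 1 with Klhl9 (Polk). The Cdk4-Rb list had 2 of 17 with Cdkn2a (Cdk6, positive, and E2f1, negative) and 3 with Mtap (Cdk6, Ccnd2 and Ccne1, all positive). The methionine and Prmt5 list had 1 of 16 with Cdkn2a (Ahcy, negative) and 2 with Mtap (Il4i1 and Riok1, 1 in each direction). The regulators of the locus had 0 of 18 with Cdkn2a, 2 with Mtap (Phc1 and Ets2, 1 in each direction) and 0 with Klhl9. The Cul3 list had 0 of 5 with each of these genes. Trp53 had a rho of -0.57 with Cdkn2a and Prmt5 one of 0.15 with Mtap.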

How the data were processed

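RNA sequencing (stranded, poly(A)-selected, paired ends, per the labels' protocols) was done on 14 libraries. The deposited values are raw counts per gene, made by the authors. They used featureCounts (Subread 1.5.0-p3), STAR 2.4.0 and the mm10 (GRCm38) build, per the submitters' processing notes. How strand and multiply matching reads were handled is not given in the sources used here. All 14 columns matched a sample title and 0 were left over. Spike-in and phage entries (100, with 5 to 534 counts per library) entered neither library sizes nor tests.

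Counts were scaled by TMM and tested with edgeR 4.0.16 (limma 3.58.1, R 4.3.3; glmQLFit and glmQLFTest after filterByExpr, Benjamini-Hochberg over all genes kept, threshold 0.05), with DESeq2 1.42.0 as an alternative. The lymphomas were compared with the lines in 1 fit of 3 groups, whose 11 residual degrees of freedom all come from the lines, and each line was compared with the other 11, which stand for its own spread. Ratios of single libraries have exact 95% binomial intervals of counting error. The tests and the intervals were tested on simulated data. Promoter windows are from RefSeq (GRCm38.p6), and figures were drawn with matplotlib 3.10.9 in Python 3.11.15.

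The 5 genes and the gene lists were chosen with earlier results of these data known. Named are the 5 genes, window genes that were low or called, the 4 highest and 4 lowest rho per gene, up to 3 genes per list by smallest p, and Trp53, Mdm2, Prmt5 and Cdk4. Other genes (Gm12602, Gm12609, Gm12610, Gm12669, Cdk6, Cdkn1a, Cdkn2c, Cdkn2d, Wrap53, Mri1, Aen, Suz12, Rnf2, Eed, Ring1, Klhl13, Kctd13, Klhl21, Psd4, Ccnd2, V segments, the line 115 neighbours, Plin2, Cntln, Elavl2 and the list genes named for their rho) were named after their values were seen. A further gene of the B cell marker list is not reported here. Alternatives were DESeq2, library totals, DESeq2 size factors, no low-count filter, other limits for low expression and leaving out libraries. Leaving out lines 549 and 688 was added after seeing the data.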

Additional observations from a re-analysis of the deposited data

How the results depend on the processing

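Window genes called between the lymphomas and the lines numbered 1 without the ASNase lymphoma and 1 without the vehicle lymphoma, against 2 with both. Pathway genes called numbered 19 with library totals, and 7 to 12 without 1 of the lymphomas, against 29; of the 29, 17 kept their call with library totals, 27 with DESeq2, 7 without the ASNase lymphoma and 12 without the vehicle lymphoma, and none turned in direction. Window genes called lower in a line numbered 4 with DESeq2, against 0. Relative to line 506, the Klhl9 ratio was 1.12 in the ASNase lymphoma and 0.870 in the vehicle lymphoma, both with library totals and with the reads of genes outside the window as the total. The share of genes with a rho of at least 0.6 in size was 5.00% for Mtap with Pearson's r and 7.20% without lines 549 and 688, and 3.62% for Klhl9 with library totals and 4.10% without line 506. The low pairs in the window numbered 7 to 9 under the other limits, against 8. The causes were not tested. No paired analysis was possible because the lines and the 2 lymphomas share no replicate numbers that pair libraries.

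Depth limits the low genes. The limit of 3 counts set for a count of 0 corresponds to 0.0904 to 0.122 CPM, so absence below that level was not detectable. The lymphoma ratios of Cdkn2a and Cdkn2b rest on 3 to 10 counts.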
